A study of Mus musculus with 32 samples.

Results

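The genes described here are 5 enzymes that lengthen and desaturate long-chain fatty acids: the fatty acid desaturase genes Fads1, Fads2 and Fads3 and the elongase genes Elovl1 and Elovl5. They were taken by symbol from the tables of a mouse RNA-seq series, and are 5 of 2508 genes listed in any of its tables. Poly(A) RNA came from C57BL/6 mice homozygous for a loxP-flanked Bcl6 allele, with genotype Bcl6 fl/fl (WT) or Bcl6 fl/fl;Adipoq-Cre (AKO, adipocyte knockout), in which the adiponectin promoter drives Cre in adipocytes. All groups therefore carry the floxed allele, and no group carries Cre alone, so an effect of the Cre transgene cannot be told apart from that of Bcl6 deletion. WT and AKO, with 4 libraries each, were compared in 4 settings: male inguinal (subcutaneous) fat, the same depot in females, male perigonadal fat and male liver. The labels give no age or diet. By animal number, both male fat depots came from the same mice, and the liver samples came from other mice.

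Mammals make long polyunsaturated fatty acids, such as arachidonic and docosahexaenoic acid, from the essential fatty acids of the diet by alternating desaturation and elongation in the endoplasmic reticulum. FADS2 catalyses the first desaturation, ELOVL5 elongates its products, and FADS1 catalyses the second desaturation. FADS3 is a paralog known for desaturating the sphingoid base of ceramides, and ELOVL1 elongates very long saturated and monounsaturated acyl-CoAs for sphingolipids. BCL6 is a transcriptional repressor. In liver, SREBP-1c, encoded by Srebf1, and PPAR-alpha are known activators of the desaturase genes.

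The 3 desaturase genes are paralogs, and the stretch of coding sequence they share best carries the last of their histidine boxes, which bind the iron of the active site. It is shown because reads that fall in it are the hardest to assign to 1 gene. The 60 bases below are from the GENCODE M21 transcripts with the longest coding sequence, and capitals mark the 53 bases that are the same in all 3.
Fads1: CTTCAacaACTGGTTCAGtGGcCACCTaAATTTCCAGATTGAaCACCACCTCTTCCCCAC
Fads2: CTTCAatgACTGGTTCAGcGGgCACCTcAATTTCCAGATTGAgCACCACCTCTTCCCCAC
Fads3: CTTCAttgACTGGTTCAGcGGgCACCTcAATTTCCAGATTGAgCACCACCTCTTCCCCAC
The stretch starts at coding base 1119 in Fads1, 1110 in Fads2 and 1125 in Fads3. The longest run without a mismatch between transcripts was 54 bases for Fads2 and Fads3, and 17 bases for Fads1 and Fads2 and for Fads1 and Fads3. Elovl1 and Elovl5 shared no run over 11 bases. How reads with several matches were treated was not given in the sources used here.

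In GRCm38, the assembly of mm10, Fads3 (chromosome 19, 10041569 to 10060110, plus strand), Fads2 (10062765 to 10101746, minus strand) and Fads1 (10182888 to 10196877, plus strand) lie in a row. Elovl1 lies on chromosome 4 (118428093 to 118432953, plus strand) and Elovl5 on chromosome 9 (77917364 to 77984519, plus strand). Exons of Elovl1 overlap those of Cdc20, on the opposite strand, by 53 bases, and the exons of the other 4 genes share no base with another gene's exons. The kit keeps strand, but whether counting used it was not given in the sources used here. Without strand, a part of the Elovl1 reads cannot be told apart from those of Cdc20.

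Counts were held for genes the authors had listed as different at an adjusted p under 0.05, which limits what can be said: a gene not listed has no value here. Since the listing used these same libraries, WT and AKO groups that do not overlap are in large part a result of that choice. How many of all listed genes lack overlap was not computed, so a lack of overlap is not a trait particular to the members. Levels are given as normalized counts, that is, read counts divided by the authors' size factors, which correct for depth. The size factors spanned 0.373 to 1.74 (male inguinal), 0.402 to 1.59 (female inguinal) and 0.603 to 2.20 (liver). They moved with genotype in females (0.786 ± 0.285 in WT and 1.37 ± 0.233 in AKO, SD, n = 4, two-sided exact permutation p = 0.0286, the smallest possible), and in male inguinal fat they averaged 0.838 ± 0.332 and 1.36 ± 0.423 (exact permutation p = 0.114). Bcl6 itself was listed in female inguinal fat alone, where it ranged from 988 to 1442 normalized counts in WT and from 2295 to 2799.8 in AKO. These counts cover the whole gene, recombined exons or not, so they do not check the labels, and AKO means the libraries labelled so. Tests are edgeR's quasi-likelihood test with Benjamini-Hochberg adjustment over all genes the authors tested (12554 for the male and 13546 for the female inguinal comparison, and an estimated 11441 for liver).

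In male inguinal fat the authors listed 4 of the 5 genes, all higher in AKO, where 4.54% of the genes tested were listed as higher. Females had 3 of 5 listed, all higher, beside 3.20% of the genes tested. Perigonadal fat had 2 of 5, both higher, beside 5.68%, and 1 of these 2, Fads1, was at least 1.5-fold higher, beside 1.92%. Liver had 1 of 5, lower, beside 0.245%. The edgeR test passed 3 of the 5 in male inguinal fat (Fads1, Fads2 and Elovl5, beside 2.92% of the genes tested passing as higher), 2 of the 5 in female inguinal fat (Fads1 and Fads3, beside 1.56%) and 0 of the 5 in liver (beside 0.00% passing as lower). The set was chosen with results of these data known, so these shares are a description. In liver, Elovl5 passed at an unadjusted p under 0.05 and with DESeq2. Counts were held only for genes that the authors had listed, and DESeq2 is the tool the submitters name. A pass with DESeq2 or at an unadjusted p was therefore largely fixed in advance. It is no separate support, here or for the other members below.

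Fads1, the desaturase that forms arachidonic acid, rose most of the listed members. In male inguinal fat it had normalized counts of 1168, 1018, 1463 and 1172 in WT replicates 1 to 4 and of 3639, 3209.8, 3578 and 3664 in AKO. Every AKO library lay far above every WT library. The fold was 2.92 (log2 fold 1.54 ± 0.10 SE, edgeR adjusted p = 1.62e-05). Among the 1074 genes the authors' deposited table lists for this depot, Fads1 has rank 16 by adjusted p and, among the 570 that are higher, rank 33 by fold.

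In female inguinal fat Fads1 had 3603, 3324, 3742 and 3263 normalized counts in WT and 6159, 6266, 7371 and 6305 in AKO. The groups did not overlap, and AKO replicate 3 was the highest of all. The fold was 1.87 (log2 fold 0.91 ± 0.08 SE, edgeR adjusted p = 0.000298). The rise was smaller than in males: the difference between the sexes in log2 fold, male minus female, was 0.64 ± 0.14 SE (95% interval 0.34 to 0.94, edgeR interaction test, adjusted p = 0.0252 over the 290 genes held for both sexes, 1.72% of which passed). The call was lost without any 1 of 5 libraries, with adjusted p of 0.0546 without male AKO replicate 1, 0.0596 without male AKO replicate 3, 0.0513 without female WT replicate 1, 0.0572 without female AKO replicate 1 and 0.0698 without female AKO replicate 2 by the edgeR interaction test, while the difference stayed between 0.61 and 0.63 in these 5 fits. Males and females are separate sets of mice by animal number, so sex and set cannot be told apart.

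In perigonadal fat of the male mice, the authors' deposited table gives Fads1 a mean of 5078 normalized counts over all 8 libraries and a log2 fold of 1.29 ± 0.10 SE (2.45-fold, adjusted p = 3.20e-34). The authors' deposited table for male inguinal fat, from the same mice, gives 1.49 ± 0.11 SE, and that for females 0.88 ± 0.09. Fads1 was the one member listed in all 3 fat tables. The difference between depots was not tested, since no perigonadal counts were used here.

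**Figure D1:**
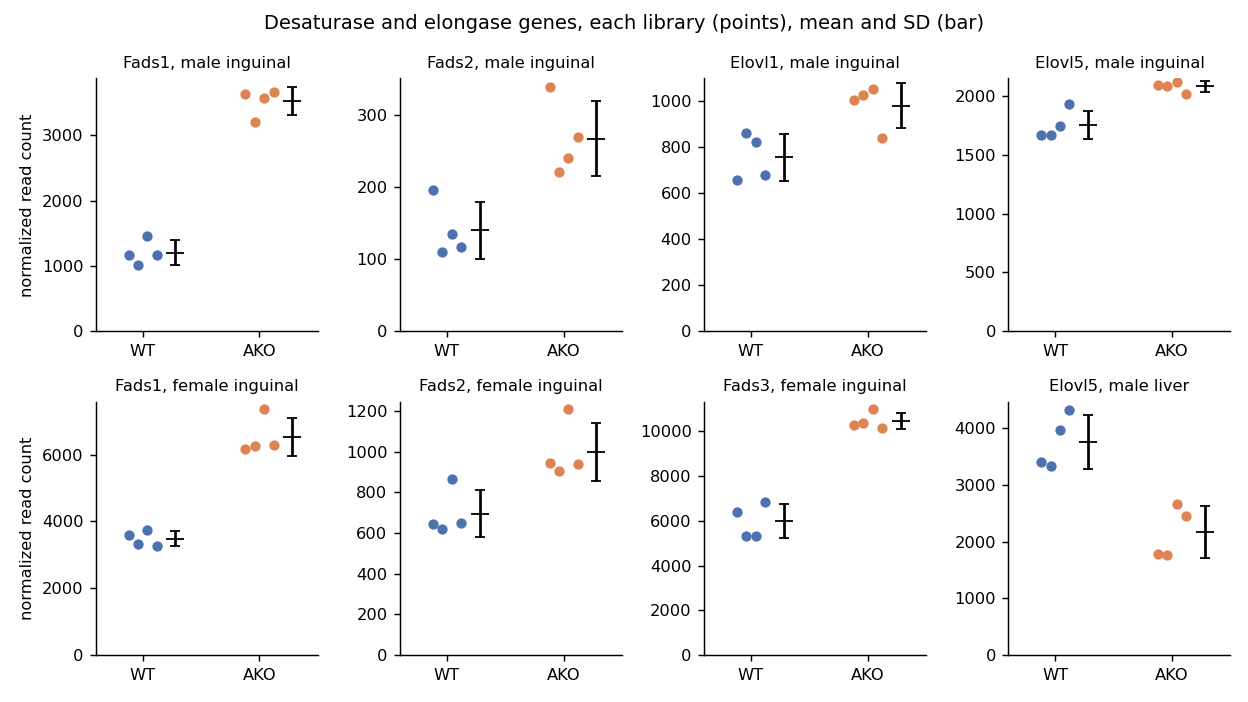
Normalized read counts (y axis, from 0) of each listed member in the 4 WT (blue) and 4 AKO (orange) libraries of each tissue with counts. Points are libraries in replicate order, and the black bar is the mean with its SD. WT and AKO overlap in the Elovl1 panel alone, and Elovl5 in liver is the one panel with AKO below WT. All genes shown had been listed as different on these same libraries, so a lack of overlap is in large part built in.

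Fads2, the gene of the rate-limiting first desaturation, was the lowest of the members in counts. Male inguinal WT libraries had 196, 110.2, 135 and 117 normalized counts, and AKO libraries had 338, 220.3, 239.5 and 269.7. The groups did not overlap, with replicate 1 highest in both. Fads2 rose 2.00-fold (log2 fold 1.00 ± 0.18 SE, edgeR adjusted p = 0.0115). The counts behind it were few, at 73 to 157 reads per WT library and 182 to 518 per AKO library.

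In female inguinal fat Fads2 had 645, 622, 868 and 649 normalized counts in WT and 943, 905, 1213 and 942 in AKO. The groups did not overlap, although WT replicate 3, the highest in WT, lay just below the lowest AKO library. The log2 fold of 0.52 ± 0.13 SE (1.44-fold) did not pass the edgeR test (adjusted p = 0.0783). It passed without WT replicate 3 (log2 fold 0.65, edgeR adjusted p = 0.0378) and with DESeq2 (adjusted p = 0.0108), and the authors' deposited table has an adjusted p of 0.0132. With the total of the listed genes as library size the log2 fold was 0.31. The difference from males in log2 fold was 0.47 ± 0.23 SE, with a 95% interval from -0.02 to 0.96 (edgeR interaction test, adjusted p = 0.418), which includes both no difference and one as large as that of Fads1.

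Fads3 was listed in female inguinal fat alone, and its level in the other tables was not analysed here. It had 6391, 5326, 5343 and 6841 normalized counts in WT and 10296, 10383, 11020.4 and 10174 in AKO. All AKO libraries lay above all WT libraries, and the AKO values were close together, with an SD of 3.61% of their mean against 12.8% in WT. Fads3 rose 1.75-fold (log2 fold 0.81 ± 0.09 SE, edgeR adjusted p = 0.00136). With its neighbour Fads2 it shares the 54-base run shown above.

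Elovl1, the elongase of very long saturated chains, was listed in both male fat depots. In inguinal fat it had 658, 861, 821 and 679 normalized counts in WT and 1002, 1027, 1050.2 and 837 in AKO. The groups overlapped, as AKO replicate 4 lay below WT replicate 2. The log2 fold of 0.36 ± 0.10 SE (1.29-fold) did not pass the edgeR test over all genes (adjusted p = 0.0711). It passed without WT replicate 2 (adjusted p = 0.0469), without AKO replicate 4 (edgeR adjusted p = 0.0391) and with DESeq2 (adjusted p = 0.0257). In the authors' deposited table Elovl1 has an adjusted p of 0.0335 there, and in perigonadal fat a log2 fold of 0.37 ± 0.10 SE (1.29-fold, adjusted p = 0.0029).

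Elovl5, which elongates the products of FADS2, was the member listed in both fat and liver, and in opposite directions. In male inguinal fat it had 1672, 1673, 1749 and 1929.8 normalized counts in WT and 2099, 2089.8, 2123 and 2020.4 in AKO. The groups did not overlap, but the rise was small: 1.18-fold (log2 fold 0.24 ± 0.06 SE, edgeR adjusted p = 0.0458). Of 8 fits that each left out 1 library, the call held in 1, the fit without WT replicate 4 (log2 fold 0.29, edgeR adjusted p = 0.0262), and the other 7 gave adjusted p from 0.0814 to 0.128. It was also lost with TMM scaling over the table (edgeR adjusted p = 0.053), while the direction held in every fit.

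In liver Elovl5 had 3399, 3334, 3963 and 4329 normalized counts in WT and 1789, 1763, 2661 and 2454 in AKO. All 4 AKO livers lay below all 4 WT livers, and AKO replicates 1 and 2 were the lowest. The log2 fold was -0.79 ± 0.15 SE, with 1.73 times the AKO level in WT. Counts were held for 34 liver genes. Fitted on these, the edgeR test gave an adjusted p of 0.281 over all genes tested (unadjusted p = 0.000344). DESeq2 gave an adjusted p of 0.00445, and the authors' deposited table a log2 fold of -0.70 ± 0.15 and an adjusted p of 0.00105. The log2 fold was -0.47 with TMM and -0.46 with DESeq2 size factors, scalings that rest on the listed genes alone. For AKO liver replicate 4 the labels disagree. Its description names WT perigonadal fat of another animal, while its title, tissue and genotype give AKO liver and were followed. Without this library the log2 fold was -0.86. The contrast between fat and liver was not tested, as the tables were normalized separately and the mice differ.

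**Figure D2:**
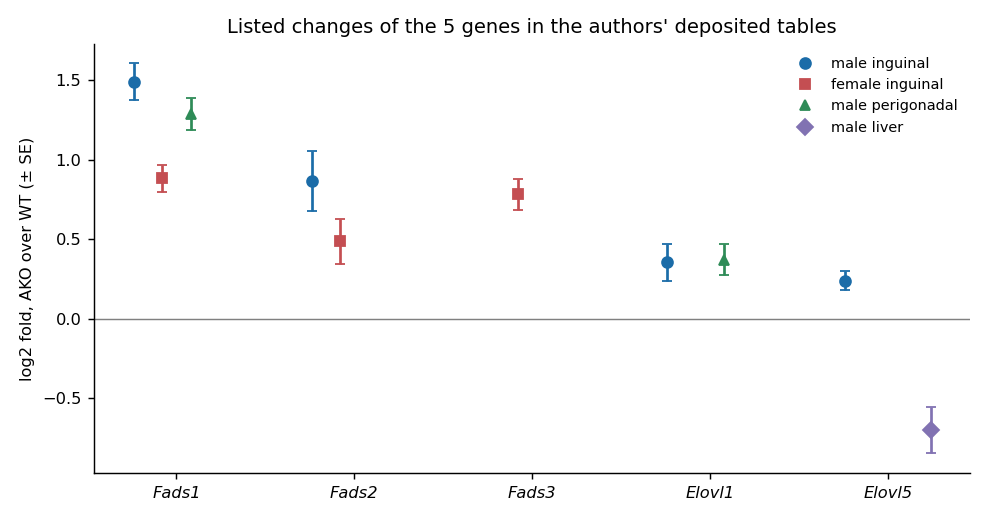
Log2 fold of AKO over WT with its SE (y axis) from the authors' deposited tables, for each member in each tissue that lists it. Fads1 has 3 fat values between 0.88 and 1.49, Elovl1 has 0.35 and 0.37, and Elovl5 has 0.24 in male inguinal fat and -0.70 in liver. A missing symbol means that the gene is not listed there.

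Divided by the summed length of their exons, the members could be ranked within a table. In WT male inguinal fat Elovl5 had the highest level, at 499 ± 34.5 normalized counts per kb of exon (SD, n = 4). Elovl1, at 277 ± 37.1, and Fads1, at 250.4 ± 38.7, followed and did not differ beyond their spread, and Fads2 was lowest at 42.4 ± 11.8. In AKO the order was Fads1 (732 ± 44.0), Elovl5 (591 ± 12.5), Elovl1 (359 ± 35.5) and Fads2 (81.0 ± 15.7), with no overlap between neighbours. In female inguinal fat the order was the same in both genotypes: Fads3 at 1576 ± 201 in WT and 2761 ± 99.7 in AKO, Fads1 at 724 ± 47.3 and 1356 ± 118, and Fads2 at 211 ± 35.0 and 304 ± 43.3 normalized counts per kb. Every pair in that order was separated in every library.

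**Figure D3:**
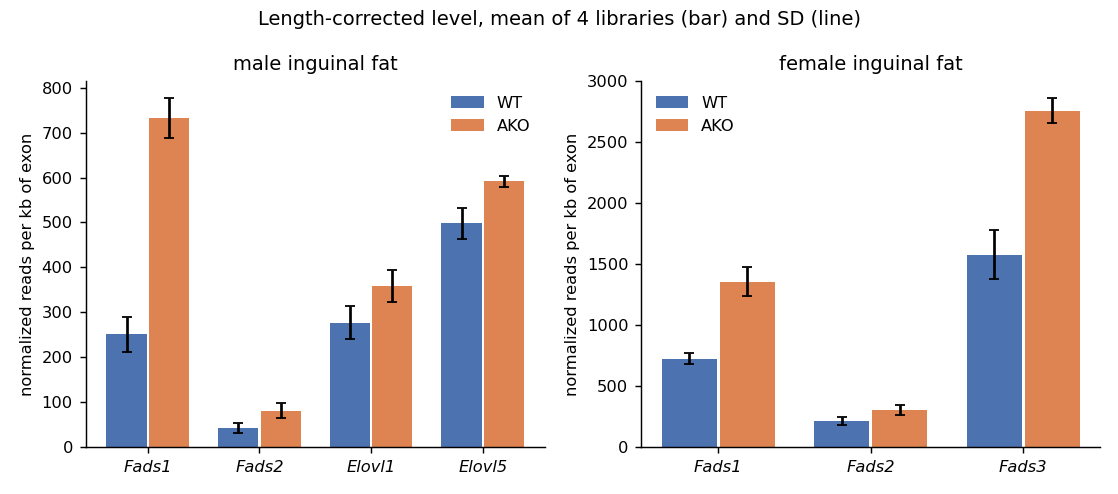
Normalized counts per kb of exon (y axis, from 0) of the listed members in male and female inguinal fat, as the mean of 4 libraries (bars, WT blue and AKO orange) with its SD (lines). In males Fads1 is level with Elovl1 in WT and is the highest of the 4 genes in AKO, while the order of the 3 genes in females is the same in WT and AKO. Levels are not to be compared between the panels, whose tables were normalized separately.

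Ratios of reads of 2 members within a library do not depend on the scaling. Male inguinal fat held 0.698, 0.609, 0.836 and 0.607 Fads1 reads per Elovl5 read in WT and 1.73, 1.54, 1.69 and 1.81 in AKO, so Elovl5 reads were the more numerous in all 4 WT libraries and Fads1 reads in all 4 AKO libraries. The mean log2 ratio rose by 1.31. Against Elovl1, Fads1 shifted by 1.18 in males (1.78, 1.18, 1.78 and 1.72 reads in WT, 3.63, 3.13, 3.41 and 4.38 in AKO). In females there were 5.59, 5.35, 4.31 and 5.03 Fads1 reads per Fads2 read in WT and 6.53, 6.92, 6.08 and 6.69 in AKO, a shift of 0.38 on the log2 scale. These 3 pairs did not overlap between genotypes and reached the smallest possible two-sided exact permutation p of 0.0286. Of 9 pairs compared in both tables, 0 passed after adjustment (exact permutation, adjusted p = 0.0857 for these 3), a threshold that 3 pairs at the smallest p cannot reach. The male Fads1 to Fads2 ratio shifted by 0.61 (exact permutation p = 0.0571, adjusted p = 0.129), and the female Fads1 to Fads3 ratio by 0.09, with WT libraries spread from -1.07 to -0.51 and AKO libraries from -0.74 to -0.58 (exact permutation p = 0.543). The other 4 pairs gave an exact permutation p from 0.0857 to 0.343.

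Since Fads3, Fads2 and Fads1 are neighbours, the genes around them were examined. Within 250 kb of the cluster GENCODE M21 annotates 13 protein-coding genes. Fads2 and Fads3 are 2.65 kb apart at their ends, and Fads2 and Fads1 81.1 kb apart. Of the 10 that are not members, 0 were listed in either inguinal table, beside 8.56% (males) and 5.83% (females) of all genes tested. Thus Fen1 and Tmem258, which follow Fads1 directly, and Fth1, the ferritin heavy chain gene, were not among the genes called. With shares this low, 0 of 10 says little. In perigonadal fat the authors' deposited table lists 1 of the 10, beside 11.1% of all genes tested. This is Myrf, a membrane-bound transcription factor gene, at a log2 fold of -0.93 (adjusted p = 5.85e-07), the opposite direction to Fads1. Genes not listed have no values here, so smaller changes among them cannot be seen.

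**Figure D4:**
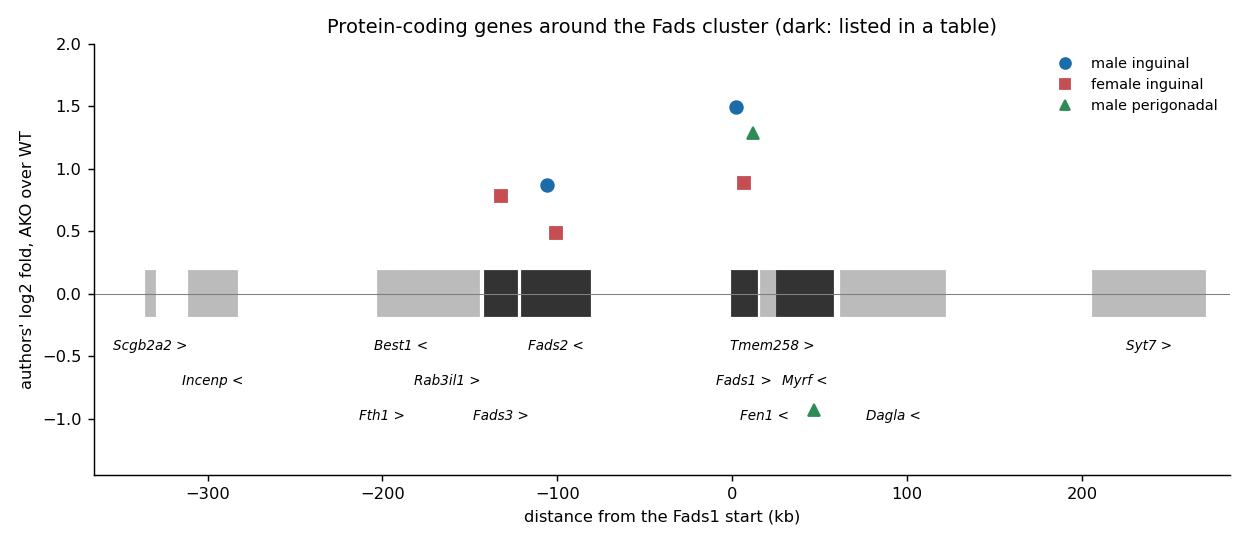
Protein-coding genes within 250 kb of the Fads cluster by distance from the start of Fads1 in kb (x axis; boxes to scale, > and < after a name give the plus and minus strand), dark where a table lists the gene. Symbols, shifted slightly sideways to keep them apart, give the authors' log2 fold (y axis). Symbols stand over Fads1, Fads2 and Fads3 and, below 0, over Myrf.

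Promoters (250 bases before to 50 after the start, from RefSeq, GRCm38.p6) were at hand for 4 of the 5 genes, Elovl1 with 2 starts. For Fads1 no promoter was at hand, so what follows does not cover it. They were searched on both strands for TTCCTNGAA and for TTCNNNGAA, forms of the element that BCL6 and STAT proteins bind, for TCACNCCAC, a form of the sterol regulatory element, and for CCAAT, the NF-Y box. The first is a subset of the second. None of the 5 windows held any of the first 3 motifs, which occur in 1.59%, 8.30% and 1.24% of 32851 promoters of the same length. With shares this low, a lack of matches in 5 windows says little. CCAAT, which 37.4% of promoters hold, was found in Elovl1, Elovl5 and Fads3. The windows of Fads3, listed in females, and of Elovl5, listed in opposite directions in fat and liver, each held 2 matches, on opposite strands in Fads3 and on the minus strand in Elovl5, and are shown with these matches in capitals.
Fads3, chr19:10041298-10041597, plus strand: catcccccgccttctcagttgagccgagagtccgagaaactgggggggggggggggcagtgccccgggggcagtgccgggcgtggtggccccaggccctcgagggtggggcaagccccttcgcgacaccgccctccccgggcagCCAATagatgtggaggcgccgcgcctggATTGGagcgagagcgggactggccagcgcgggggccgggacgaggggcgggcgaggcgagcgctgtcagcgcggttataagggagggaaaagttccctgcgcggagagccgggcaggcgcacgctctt
Elovl5, chr9:77917115-77917414, plus strand: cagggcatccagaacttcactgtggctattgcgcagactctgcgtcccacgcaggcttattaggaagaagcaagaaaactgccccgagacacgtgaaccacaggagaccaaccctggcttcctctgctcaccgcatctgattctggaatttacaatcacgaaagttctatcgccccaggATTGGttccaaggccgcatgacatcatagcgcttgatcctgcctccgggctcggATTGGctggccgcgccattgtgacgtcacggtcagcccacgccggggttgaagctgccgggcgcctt

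The wider pathway was read from 7 lists, 120 genes in all, in the authors' deposited tables, with the direction of each listed gene. Of these 120 genes, male inguinal fat listed 5 higher and 13 lower, female inguinal fat 6 higher and 15 lower, perigonadal fat 5 higher and 16 lower, and liver 0 higher and 7 lower. That is 15%, 17.5%, 17.5% and 5.83% of the 120, beside 8.56%, 5.83%, 11.1% and 0.323% of all genes tested. All listed genes split into 570 higher and 504 lower, 434 and 356, 759 and 729, and 9 and 28 in the same order of tables. The lists were chosen with results of these data known, so these shares are a description. The median log2 fold of the listed ones was -0.32, -0.27, -0.45 and -0.35, beside 0.23, 0.30, 0.21 and -0.42 over all genes of those tables.

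Of 25 partners in desaturation and elongation, 12%, 12%, 8% and 4% were listed in the same order of tables, beside the shares of all genes given above. Cyb5r4, a reductase of cytochrome b5, the electron donor of the desaturases, was lower in all 4 of the authors' deposited tables, with log2 folds of -0.32 and -0.25 in male and female inguinal fat, -0.39 in perigonadal fat and -0.35 in liver. Cyb5r3, the main reductase of cytochrome b5, fell in both male depots (-0.32 ± 0.08 SE in inguinal and -0.39 ± 0.12 in perigonadal fat), and Hsd17b12, the ketoacyl-CoA reductase of the elongation cycle, fell in male inguinal fat (-0.36 ± 0.11), all in the authors' deposited tables. In females Elovl6, which elongates palmitate, rose 1.58-fold and Elovl7 had a log2 fold of -0.69 ± 0.19 in the authors' deposited table. The stearoyl-CoA desaturase genes Scd1 to Scd4 were listed in none of the 4 tables.

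Of 17 regulators and sensors of fatty acids, 4 were listed in male inguinal fat, all lower, 3 in females, all lower, and 5 in perigonadal fat, 3 of them lower. The others have no value here, and among all listed genes 504 of 1074, 356 of 790 and 729 of 1488 were lower. The listed shares of the 17 were 23.5%, 17.6% and 29.4%, beside 8.56%, 5.83% and 11.1% of all genes tested. Srebf1 was lower in AKO in all 3 fat tables while Fads1 was higher. In males Srebf1 of inguinal fat ranged from 5445 to 6623 normalized counts in WT and from 2641 to 3755 in AKO, and in females from 11270.5 to 16398 and from 6668 to 10928, with no overlap in either. Its log2 folds in the authors' deposited tables were -0.83 ± 0.12 SE, -0.55 ± 0.16 and -0.77 ± 0.14 in male inguinal, female inguinal and perigonadal fat. Rxra, a nuclear receptor that pairs with PPARs, was also lower in all 3 of the authors' deposited fat tables (-0.32, -0.18 and -0.29), Ppara in females (-0.64) and Insig2 in perigonadal fat (-0.33), where Ppard (0.26) and Mlxipl (0.33) were higher. In liver, Pparg was lower (-0.76 ± 0.18) beside Elovl5 in the authors' deposited table.

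The acyl-CoA thioesterase genes Acot2, Acot3 and Acot4, which split acyl-CoAs into the free acid and CoA, rose in all 3 of the authors' deposited fat tables, with log2 folds from 0.77 (Acot2, male inguinal) to 4.47 (Acot3, perigonadal). These neighbouring genes are close paralogs, so reads may be split among them. Other genes that load or bind acyl-CoA were lower in the authors' deposited tables: the transporter and acyl-CoA synthetase genes Slc27a1 (-0.53 in male inguinal and -0.51 in perigonadal fat), Slc27a2 (-1.22), Acsbg1 (-0.82) and Acsl5 (-0.27) in females, and Dbi, an acyl-CoA binding protein gene, in perigonadal fat (-0.60).

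Peroxisomal genes shorten very long acyl chains, including the last step to docosahexaenoic acid. Of 14 such genes, 3 were listed in male inguinal fat (2 lower), 4 in females (3 lower), 4 in perigonadal fat (all lower) and 4 in liver (all lower). These are 21.4%, 28.6%, 28.6% and 28.6% of the 14, beside 8.56%, 5.83%, 11.1% and 0.323% of all genes tested. Of all listed genes in liver, 28 of 37 were lower. Scp2 was lower in both male depots (-0.38 and -0.45), Ehhadh in females and in perigonadal fat (-0.55 and -0.59), and Hsd17b4 in perigonadal fat and liver (-0.45 and -0.17) in the authors' deposited tables. Acox3 in male inguinal fat (0.22) and Abcd2 in females (0.34) were higher.

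Phospholipid remodelling (17 genes), eicosanoid formation (20) and de novo synthesis (11) had 1 or 2 listed genes in each fat table. In male inguinal, female inguinal and perigonadal fat, phospholipid remodelling had 11.8%, 11.8% and 5.88% listed. Eicosanoid formation had 5%, 10% and 10%, and de novo synthesis 9.09%, 18.2% and 18.2%. Of all genes tested 8.56%, 5.83% and 11.1% were listed, so some of these shares were near or below that. In the authors' deposited tables Pla2g16, the adipose phospholipase, was lower in both male depots (-0.41 and -0.65), where Lpgat1 rose in inguinal fat (0.71), and Lpcat4 and Mboat1 fell in females (-0.61 and -0.75). Of the eicosanoid genes, Ltc4s (-0.34) was lower in male inguinal fat, Ptgds (-1.21) lower and Ptgs1 (0.35) higher in females, and Ephx2 (-0.70) and Ptgis (-0.59) lower in perigonadal fat. Acacb, which makes malonyl-CoA at mitochondria, was lower in females and in perigonadal fat (-0.46 and -1.04), Mcat in both male depots (-0.35 and -0.34), and Me1, the malic enzyme that supplies NADPH, in liver (-0.67).

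**Figure D5:**
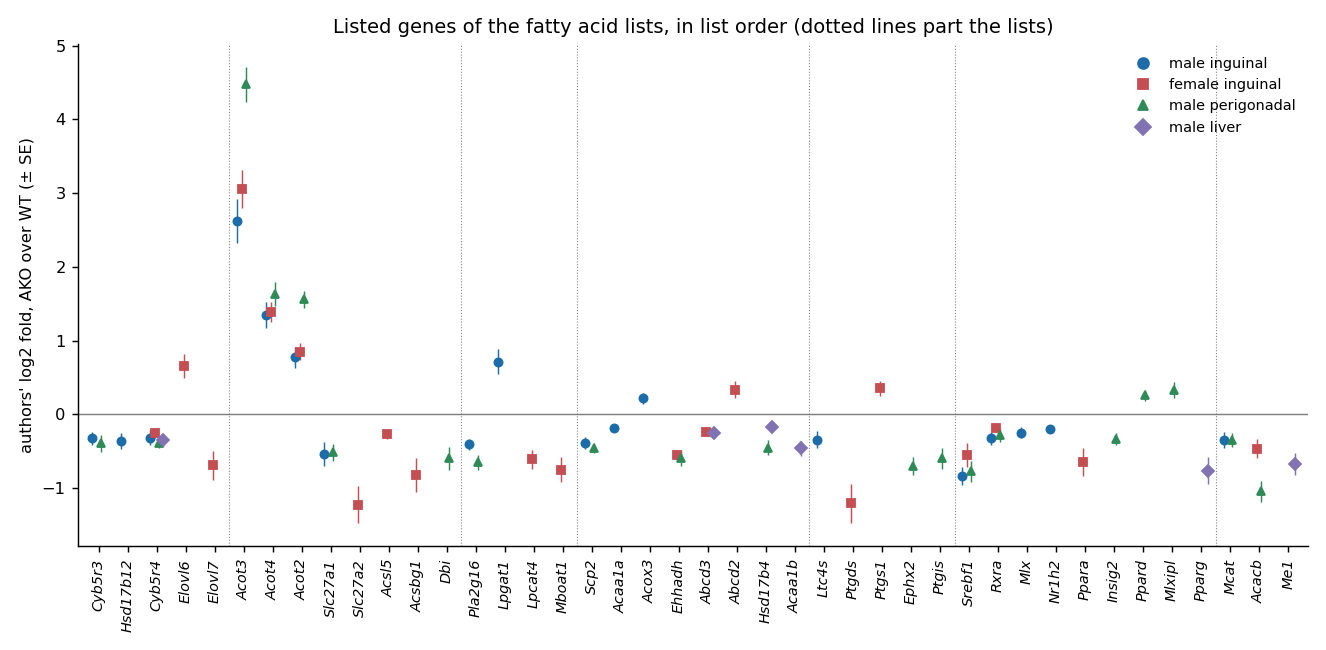
Authors' log2 fold of AKO over WT with its SE (y axis) for each gene of the 7 fatty acid lists that a table lists (x axis, dotted lines part the lists), by tissue, with 1 peroxisomal gene left out. Most symbols lie below 0. The highest are Acot3, Acot4 and Acot2, and the Srebf1 symbols of all 3 fat tables lie between -0.55 and -0.83.

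Markers of other cells moved with genotype in the same tables. In female inguinal fat 5 of 9 epithelial markers were listed, all lower, and 4 of 8 macrophage markers, all higher. The listed epithelial markers summed to 15907 to 20282 normalized counts in WT and 7247 to 11282 in AKO. The listed macrophage markers summed to 13868 to 17299 in WT and 17373 to 23965 in AKO. Unlisted markers are left out of these sums, so their separation follows from the listing and is no level of a cell type. Of the 13546 genes tested in females, 356 were listed as lower and 434 as higher. Of the adipocyte markers 1 of 8 was listed there, Adipoq, at 45320 to 50391 in WT and 61301 to 74578 in AKO. In male inguinal fat 0 of 9 epithelial and 0 of 8 macrophage markers were listed, and Plin1, the 1 of 8 adipocyte markers listed, ranged from 14601 to 20809.8 in WT and from 12421 to 14285 in AKO. No listed marker had 0 reads in any library with counts. Of the progenitor or mesothelial markers, Lrrn4 was higher in both inguinal tables (1 of 8 in each), and of 4 endothelial markers Pecam1 was higher in males. In the authors' deposited tables Lrrn4 had log2 folds of 1.48 and 0.92 in male and female inguinal fat. In perigonadal fat it went the other way (-0.91). In perigonadal fat the authors' deposited table lists 2 of 8 adipocyte markers, Cidec and Lipe, both lower, 3 of 8 macrophage markers, all higher, 4 of 8 progenitor or mesothelial and 2 of 9 epithelial markers, all lower, where 759 of all 13361 genes tested were listed as higher and 729 as lower. In male inguinal fat these were 570 and 504 of 12554. The liver table lists 0 of 4 hepatocyte markers, so the tissue could not be checked from it. The part of these cells in the levels of the members was not tested, and in bulk tissue fewer cells of a type and less RNA per cell cannot be told apart.

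The genes whose profile over the 8 libraries of a table was most like that of a member were found by the root mean square difference of log2 levels centred on each gene's WT mean, among 1031 male and 753 female genes. For Fads1 in males they were Atp5g1, a subunit of mitochondrial ATP synthase, at 0.15, Zfp949 at 0.15 and Nkd1, a Wnt antagonist, at 0.20. For Fads1 in females they were Acot2 at 0.12, Tsga14 at 0.12 and Smoc1, a matrix protein gene, at 0.13, and for Fads3 they were Cmbl at 0.07, Metrn at 0.12 and Tsga14 at 0.12. Fads3 itself stood at rank 8 of the female genes nearest to Fads1 (0.16), whereas Fads2 stood at rank 87 (0.29). Fads2 was nearest to Pxdc1 (0.17), Sprtn (0.19) and Ntng2 (0.20) in males and to Tmem246 (0.08), Ctsf (0.09) and Gsta4 (0.10) in females. Elovl1 was nearest to S100a10 (0.06), Naaa (0.07) and Hlcs (0.08), and Pbxip1 (0.05) and Kctd10 (0.06) were among the 3 genes nearest to Elovl5. In liver, among 32 genes, Elovl5 was nearest to the fatty acid binding protein gene Fabp2 (0.20) and to Me1 (0.25). Since a table holds listed genes only, nearer genes may exist outside it. Centring on WT also makes genes with a similar fold lie close. The AKO over WT ratios of Atp5g1, Zfp949 and Nkd1 in males were 2.86, 2.93 and 2.86, beside 2.92 for Fads1. Whether such genes vary together beyond the genotype difference was not tested.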

How the data were processed

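Poly(A) RNA was sequenced after a TruSeq Stranded mRNA preparation, per the labels' protocols. STAR, DESeq2 and mm10 are named without versions, per the submitters' processing notes. Which counter, strand setting and annotation were used was not given in the sources used here. The deposited tables of 24 libraries hold raw read counts as whole numbers, for genes in the authors' lists only (male inguinal 1074, female inguinal 790, liver 34 after 3 repeated rows were left out). The authors' deposited comparison tables give, per the file headers, the mean normalized count over libraries (a signal), the log2 fold with its SE, and p-values. Every listed adjusted p is under 0.05, and perigonadal fat has this table alone here.

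Size factors were solved from the counts and the authors' means (misfit at most 0.298%, in liver) and used as library sizes. How many genes the authors tested follows from the pairs of raw and adjusted p, and is an estimate from rounded values for liver. The test on counts was that of edgeR 4.0.16 (quasi-likelihood, legacy mode, R 4.3.3), WT against AKO within a tissue and sex, without covariate or filter. The Benjamini-Hochberg adjustment ran over all genes tested, with a threshold of 0.05. For the interaction of sex and genotype it ran over the 290 genes held for both sexes alone, which is milder. Spread is estimated over listed genes alone, which were chosen on these samples, and unlisted genes count as larger p, so the adjusted p is an upper bound for that fit. SE is the log2 fold over the root of F. Folds are edgeR's unless credited to the authors, whose sign was AKO over WT in every matched gene with counts and was taken to be the same for perigonadal fat. Pair ratios used raw counts plus 0.5 and a two-sided exact permutation test in SciPy 1.17.1. Alternatives were TMM, DESeq2 size factors and table totals as scaling, DESeq2 1.42.0 as test, a mean count filter of 10, each library left out, and a replicate block. The scripts were tested on simulated counts. Exon lengths and positions are from GENCODE M21. For 1 liver library whose labels disagree, the title was followed. The labels name separate animals within a group. The members, lists and tests were chosen with earlier results of these data known. Named genes are the members, Bcl6 and Adipoq, in each table the listed genes of each fatty acid list (at most 6, those of lowest adjusted p), and the 3 most alike genes per member and table; Myrf, Fen1, Tmem258 and Fth1 were named as neighbours. The values of 3 genes that this rule names are not reported here.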

Additional observations from a re-analysis of the deposited data

Results flagged for a closer look

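In female inguinal fat, AKO replicate 3 lay far above the other 3 AKO libraries in Fads1 (7371 normalized counts, with a gap of 0.88 of the group's range) and in Fads2 (1213, gap 0.875 of the range). WT replicate 3 lay far above the other WT libraries in Fads2 (868, gap 0.887). These are 3 of 16 groups of 4 libraries examined, and chance alone marks about 1 in 20 groups. In these groups the cause was not tested.

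The response of Fads1 differed between male and female inguinal fat, by 0.64 in log2 fold (edgeR interaction test, adjusted p = 0.0252, with adjusted p from 0.000993 to 0.0698 over the alternatives). This adjustment ran over the 290 genes held for both sexes alone, a milder correction than over all genes tested. The call was lost without any 1 of 5 libraries, and sex and set of mice cannot be told apart. All 4 AKO libraries lay above all 4 WT libraries in both sexes.

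Elovl5 was higher in all 4 AKO libraries of male inguinal fat (log2 fold 0.24) and lower in all 4 AKO livers (log2 fold -0.79) than in any WT library of the same tissue. The difference between the tissues was not tested.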

How the results depend on the processing

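The direction of all 8 folds of members with counts held in all 112 refits. Fads1 and Fads3 passed in every alternative, and Fads2 in every one in males, with log2 folds from 1.47 to 1.66 (Fads1, males), 0.69 to 0.94 (Fads1, females), 0.60 to 0.88 (Fads3) and 0.86 to 1.14 (Fads2, males). The call of Elovl5 in male inguinal fat was lost with TMM (log2 fold 0.23), DESeq2 size factors (0.17) and the replicate block (0.25), and without 1 library its log2 fold ran from 0.22 to 0.29. Calls were gained for Elovl1 with DESeq2 (0.37) and the replicate block (0.37), with 0.31 to 0.43 without 1 library, for Fads2 in females with DESeq2 (0.52) and the replicate block (0.53), with 0.42 to 0.65 without 1 library, and for Elovl5 in liver with DESeq2 (-0.79) and table totals (-0.90), so that 1 member passed in liver in place of 0. Calls gained with DESeq2 repeat the tool the submitters name, on genes already listed, and are no separate support. The sex difference of Fads1 ran from 0.56 to 0.75 without 1 library, with 0 or 1 members called. At least a 1.5-fold change left 1 of 2 perigonadal members, Fads1. Of the ratios 0 of 9 passed under any alternative, and tests that leave out 1 library or pair the libraries cannot pass. Same-numbered WT and AKO libraries did not deviate together throughout (correlations were 0.07 to 0.26 for the male inguinal, -0.30 to 0.18 for the female inguinal and -0.58 to 0.14 for the liver libraries), so the replicate numbers were not taken as pairs. Scaling by the listed genes alone moved the middle of all folds by -0.16 (DESeq2 size factors) and -0.21 (totals) in females and by 0.32 (TMM and DESeq2 size factors) and -0.11 (totals) in liver, so that changes near that size depend on it. Liver is limited by its 34 genes with counts, and male Fads2 by its low counts.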
